A study of Mus musculus with 9 samples.

Results

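The open chromatin around 9 deafness genes of ion transport and cell coupling was examined in the embryonic mouse cochlea: Kcnq1, Kcne1, Kcnj10, Slc26a4, Slc12a2, Gjb2, Gjb6, Bsnd and Atp6v1b1. A peak was given to a gene when its summit, the position of the strongest signal, was closer to a start site of that gene than to any other protein-coding start site, within 500 kb. By this rule the 9 genes received 226 of the 286921 peaks in 9 lists. Merged across lists, these peaks formed 59 of 69415 regions. The assignment rests on distance alone, and no contact or expression was measured.

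In the mature cochlea, the fluid of the cochlear duct is rich in potassium, and hair cells depend on it for transduction. Marginal cells of the stria vascularis take up potassium through the cotransporter encoded by Slc12a2 and secrete it through the channel formed by KCNQ1 and KCNE1, while barttin, encoded by Bsnd, is the subunit that lets chloride leave the same cells. KCNJ10 is a potassium channel of strial intermediate cells and of glia-like supporting cells, pendrin (Slc26a4) and the proton pump subunit encoded by Atp6v1b1 move anions and protons in outer sulcus, spiral prominence and endolymphatic duct cells, and the connexins of Gjb2 and Gjb6 couple supporting cells, outer sulcus cells and fibrocytes.

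ATAC-seq, in which a transposase inserts sequencing adapters into open chromatin, was done on cells sorted by fluorescence from dissected cochlear ducts. All samples came from embryos of the strain B6;129S-Sox2tm2Hoch/J, heterozygous for an EGFP knock-in that removes the coding sequence of a Sox2 allele, so sorted cells of both kinds shared that loss. Sox2-EGFP+ cells were the brightest cells (prosensory cells by design), Sox2-EGFP- cells the darkest, and the cells between were discarded. There were 2 lists of Sox2-EGFP+ cells per stage (E12, E14.5 and E16), whereas Sox2-EGFP- cells gave 1 list for E14.5 and 2 for E16. Each Sox2-EGFP+ replicate pooled the ducts of a litter, and no E12 list of Sox2-EGFP- cells was analysed here. Samples were grouped by their titles, which for 3 E16 samples disagree with a separate cell type tag.

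The lists hold peaks and no reads. The study tabulates read depth, which was not used here, and list length served as the measure of yield. Lists of Sox2-EGFP+ cells ran to 13817 and 7577 peaks (E12), 66332 and 22962 (E14.5), and 39314 and 65870 (E16). Those of Sox2-EGFP- cells ran to 23302 (E14.5), 23848 and 23899 (E16). Every peak overlapped a peak of another list of the same cell type, 1 of 5 such lists for Sox2-EGFP+ and 1 of 2 for Sox2-EGFP-, so a peak of Sox2-EGFP+ cells had more chances to be kept. The sort was visible at its own gene: Sox2 held 4.54 ± 0.909 peaks per 10000 listed peaks (SD, n = 4) in E14.5 and E16 Sox2-EGFP+ lists and 1.41 ± 0.232 (n = 3) in Sox2-EGFP- lists, with no overlap.

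The 9 genes were richer in listed peaks in Sox2-EGFP+ than in Sox2-EGFP- cells. They held 8 and 5 peaks at E12, 60 and 19 in the E14.5 Sox2-EGFP+ lists, 33 and 62 in the E16 Sox2-EGFP+ lists, and 12, 13 and 14 in the Sox2-EGFP- lists. Per 10000 listed peaks, this was, for replicates 1 and 2 in order, 9.05 and 8.27 in E14.5 and 8.39 and 9.41 in E16 Sox2-EGFP+ lists, against 5.15, 5.45 and 5.86 in Sox2-EGFP- lists. The groups did not overlap, with means of 8.78 ± 0.54 (SD, n = 4) and 5.49 ± 0.355 (n = 3) and a difference of 3.3. The E12 lists, with 5.79 and 6.6, lay closer to the Sox2-EGFP- lists than to the later Sox2-EGFP+ lists in full lists, but not among the 7500 highest peaks, where they held 5 each, more than any Sox2-EGFP- list. The sum over chosen genes is a description and was not tested. In sorted pools of cells, fewer cells of a type and less open chromatin per cell cannot be told apart.

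List length moved with cell type, and 2 comparisons at like length were made. E14.5 Sox2-EGFP+ replicate 2 was as short as the Sox2-EGFP- lists and held 19 peaks of the 9 genes against 12 in E14.5 Sox2-EGFP- cells. In that pair, 5 genes had more peaks in Sox2-EGFP+ cells, 3 had equal numbers and 1, Bsnd, had more in Sox2-EGFP- cells. The same shares over all genes were not computed for this pair. Among the 20000 highest peaks of each E14.5 and E16 list, the 9 genes held 13, 16, 12 and 15 peaks in Sox2-EGFP+ and 10, 9 and 11 in Sox2-EGFP- lists. The groups stayed apart at this length, with a smaller difference of 2 peaks per 10000, but not among the 7500 highest peaks, where they held 3, 6, 1 and 2 against 2, 1 and 3. Sequencing batch was shared within the E16 replicates 1, where the values were 8.39 and 5.45, and the difference among the lists of the other batch was 3.41.

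**Figure D1:**
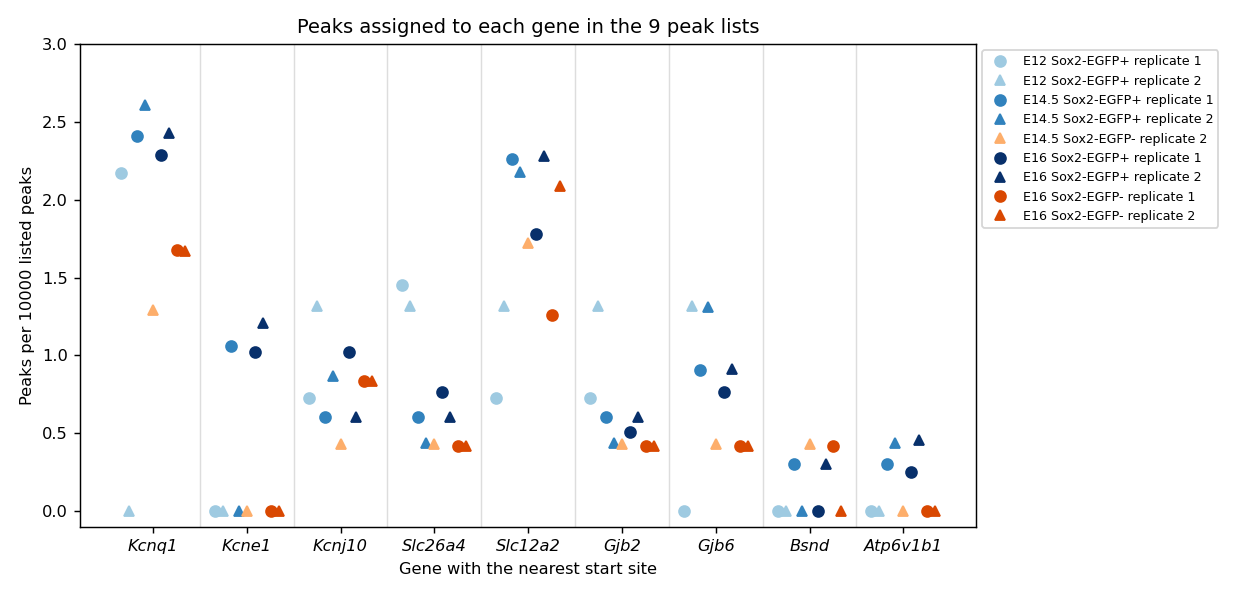
Peaks given to each gene per 10000 peaks of the list (vertical axis), with 1 point per list, blue for Sox2-EGFP+ and orange for Sox2-EGFP- cells, circles for replicate 1 and triangles for replicate 2. Kcnq1, Gjb6 and Atp6v1b1 show the E14.5 and E16 Sox2-EGFP+ points above all Sox2-EGFP- points, while Kcnj10, Slc12a2 and Bsnd overlap.

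Taken gene by gene, 5 of the 9 (55.6%) had E14.5 and E16 values that did not overlap between cell types with Sox2-EGFP+ higher: Kcnq1, Slc26a4, Gjb2, Gjb6 and Atp6v1b1. Among all 17545 genes tested, 16.3% did so. In Slc26a4 and Gjb2, E14.5 Sox2-EGFP+ replicate 2 held 1 peak, as did each Sox2-EGFP- list. Its value (0.436) exceeded theirs (0.418 to 0.429) only because its list was shorter. Division by list length entered the values of all genes too, and its part in these shares was not tested. None of the 9 separated with Sox2-EGFP- higher, against 9.27% of all genes. The median difference was 0.362 peaks per 10000 for the 9 genes and -0.035 for all genes. With 35 ways to divide 7 lists, a two-sided exact permutation test cannot give a p below 0.0286, and after Benjamini-Hochberg adjustment over all genes the smallest adjusted p was 0.201. No gene passed at 0.05. Without adjustment 2493 genes had a p under 0.05, among them Kcnq1, Gjb6 and Atp6v1b1.

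The potassium channel pair of marginal cells differed in its spread over lists. Kcnq1, the pore subunit, held 16 and 6 peaks in E14.5 Sox2-EGFP+, 9 and 16 in E16 Sox2-EGFP+, 3 in E14.5 Sox2-EGFP- and 4 and 4 in E16 Sox2-EGFP- lists. Per 10000 listed peaks the means were 2.44 ± 0.134 and 1.55 ± 0.224, a difference of 0.89 (exact permutation p = 0.0286, adjusted p = 0.201). This separation lay in the lower peaks of the lists. Among the 20000 highest peaks, Kcnq1 held 2, 4, 4 and 3 in Sox2-EGFP+ and 3, 3 and 4 in Sox2-EGFP- lists, which overlap.

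Kcne1, the accessory subunit of the same channel, had no peak in any Sox2-EGFP- or E12 list. It held 7 and 0 peaks in the E14.5 and 4 and 8 in the E16 Sox2-EGFP+ lists. Its 7 regions were low: 1 of its peaks stood among the 20000 highest of E14.5 Sox2-EGFP+ replicate 1, and 1 among those of E16 Sox2-EGFP+ replicate 2. Because E14.5 Sox2-EGFP+ replicate 2, a list of the length of the Sox2-EGFP- lists, also had none, a difference of cell type was not detectable for Kcne1 at equal list length (0.822 peaks per 10000 higher in Sox2-EGFP+ lists, exact permutation p = 0.143, adjusted p = 0.258).

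The other genes of marginal cells gave overlapping values. Slc12a2, the sodium, potassium and chloride cotransporter, held 15 and 5 peaks in the E14.5 and 7 and 15 in the E16 Sox2-EGFP+ lists, and 4, 3 and 5 in the Sox2-EGFP- lists. Its means of 2.12 and 1.69 per 10000 differed by 0.435 (exact permutation p = 0.114, adjusted p = 0.258). Bsnd held 2 and 0 peaks at E14.5 and 0 and 2 at E16 in Sox2-EGFP+ lists and 1, 1 and 0 in Sox2-EGFP- lists. It was the only member with a lower mean in Sox2-EGFP+ lists (0.151 against 0.283 per 10000, exact permutation p = 0.4, adjusted p = 0.559).

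Kcnj10, the channel of intermediate and supporting cells, held 4, 2, 4 and 4 peaks in the E14.5 and E16 Sox2-EGFP+ lists and 1, 2 and 2 in the Sox2-EGFP- lists. Per 10000 listed peaks its means were 0.775 and 0.701, which overlap (exact permutation p = 0.657, adjusted p = 0.763). Its count hid a difference in height that appears below. Among the 20000 highest peaks, Kcnj10 held 2 in each Sox2-EGFP+ list and 1 in each Sox2-EGFP- list (exact permutation, adjusted p = 0.317).

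The genes of outer sulcus and duct cells were few in peaks. Slc26a4 held 4, 1, 3 and 4 peaks in E14.5 and E16 Sox2-EGFP+ lists and 1 in each Sox2-EGFP- list. Atp6v1b1 held 2, 1, 1 and 3 in Sox2-EGFP+ and none in Sox2-EGFP- lists, a mean of 0.362 per 10000 against 0 (exact permutation p = 0.0286, adjusted p = 0.201). The share of all genes that separate among the 20000 highest peaks was not computed. At that length Atp6v1b1 kept its separation, with 1 in each Sox2-EGFP+ list and 0 in each Sox2-EGFP- list (exact permutation, adjusted p = 0.317). Slc26a4 did not: the value of E14.5 Sox2-EGFP+ replicate 2 exceeded those of the Sox2-EGFP- lists only because the same count of 1 was divided by a shorter list.

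Of the 2 connexins, Gjb6 separated the cell types and Gjb2 did so by arithmetic alone. Gjb6 (connexin 30) held 6, 3, 3 and 6 peaks in E14.5 and E16 Sox2-EGFP+ lists and 1 in each Sox2-EGFP- list, with means of 0.971 and 0.422 per 10000 (exact permutation p = 0.0286, adjusted p = 0.201). Among the 20000 highest peaks it had 1, 2, 1 and 1 against 0, 0 and 0 (exact permutation, adjusted p = 0.317). Gjb2 (connexin 26) held 4, 1, 2 and 4 against 1, 1 and 1, and E14.5 Sox2-EGFP+ replicate 2 lay above the Sox2-EGFP- lists only through its length. Both genes lie on chromosome 14 and point the same way, with start sites at 57723539 for Gjb2 and 57752448 for Gjb6 on mm9, so distal regions between and beyond them were divided by distance alone.

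The 59 regions were next sorted by the cell type of their peaks. Of these, 46 (78%) had peaks in Sox2-EGFP+ lists alone, 12 (20.3%) in both cell types and 1 (1.69%) in Sox2-EGFP- lists alone. The same classes held 65.5%, 28.8% and 5.63% of all regions. The 6 Sox2-EGFP+ lists together held many more peaks than the 3 Sox2-EGFP- lists, and 22 of the 59 regions (37.3%, against 35.4% of all) had peaks only in the 2 longest lists. Without these lists, 24 of 37 regions (64.9%) were of Sox2-EGFP+ lists alone, against 47.5% of all regions. Among the 20000 highest peaks of E14.5 and E16 lists, it was 14 of 26 (53.8%), against 33.6%.

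**Figure D2:**
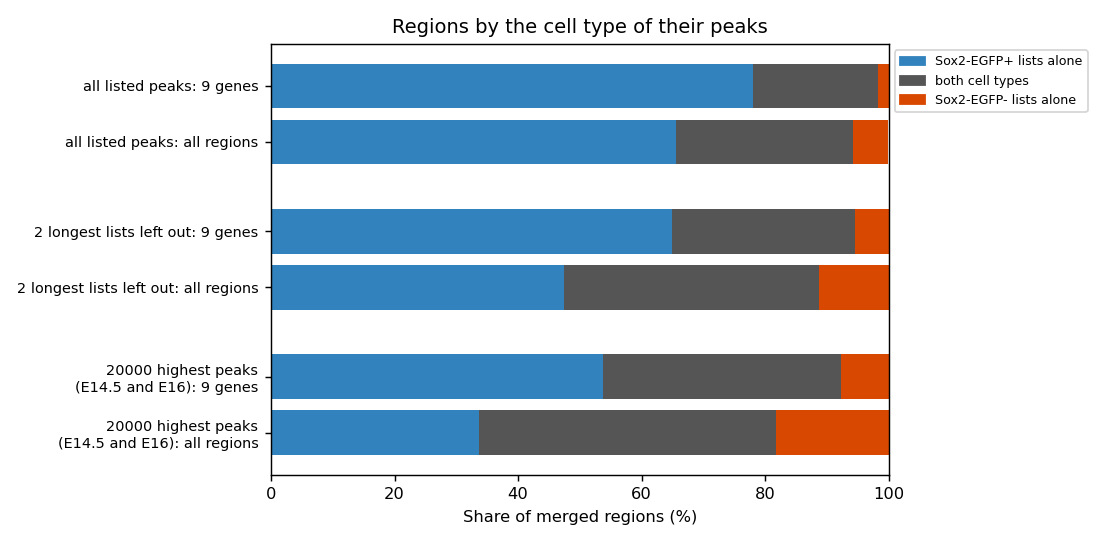
Share of merged regions (horizontal axis, percent) with peaks in Sox2-EGFP+ lists alone, in both cell types or in Sox2-EGFP- lists alone, for the 9 genes and for all regions, with all peaks, without the 2 longest lists, and with the 20000 highest peaks of each E14.5 and E16 list. The blue share of the 9 genes is above that of all regions in each pair of bars, 78% against 65.5% with all peaks.

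Shares of both classes by distance were near those of all regions. Within 1 kb of a start, 6 of 8 regions had peaks in both cell types, against 80.7% of all such regions. Beyond 1 kb, 44 of 51 regions (86.3%) had peaks in Sox2-EGFP+ lists alone, against 78.6% of all such regions. Distances ran from within 1 kb (8 regions) through 1 to 10 kb (13) and 10 to 100 kb (28) to over 100 kb (10). By annotation 25 regions were in introns, 25 between genes, 5 in promoters, 3 in untranslated exons and 1 in a coding exon, with a median width of 584 bp. An intergenic or intronic position need not point to the nearest gene: the region 156 kb downstream of the Slc12a2 start lies in an intron of Fbn2, and the region 11.7 kb upstream of Atp6v1b1 in an intron of Vax2.

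**Figure D3:**
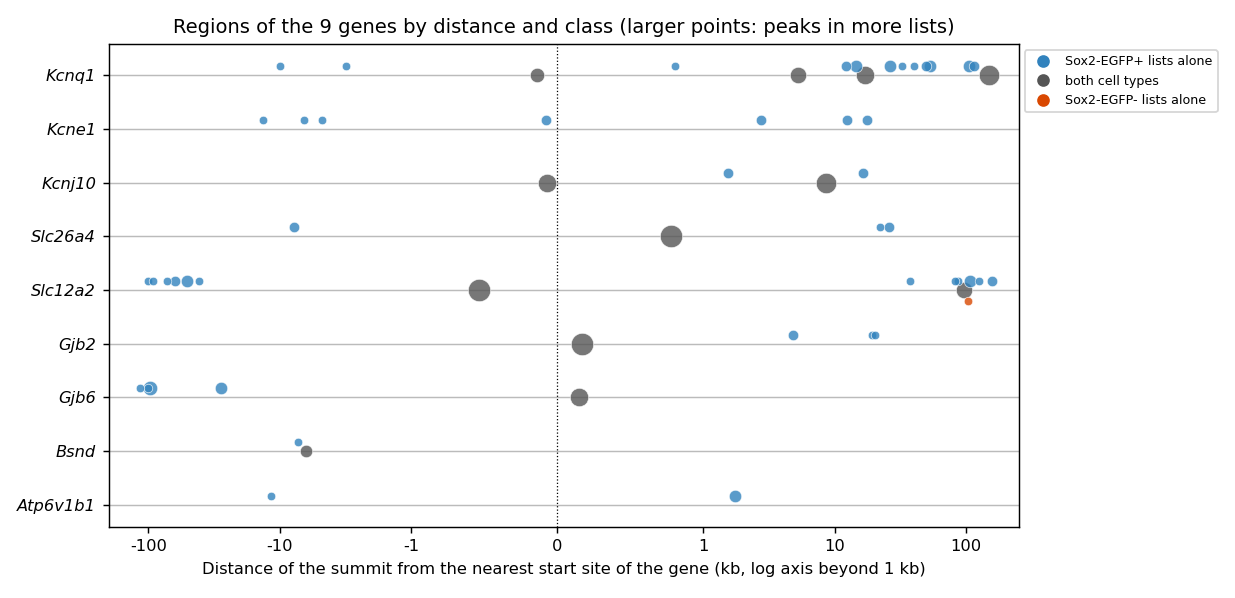
The 59 regions by the distance of their summit from the nearest start of the gene (horizontal axis, kb, logarithmic beyond 1 kb, negative upstream), coloured by cell type and sized by the number of lists with a peak. Points for both cell types stand within 1 kb of a start in 6 cases and farther out in the other 6, and the Sox2-EGFP- point lies at 103 kb in the row of Slc12a2.

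Promoters did not separate the cell types. A peak overlapped the promoter, taken as 1000 bp before to 100 bp after a start, in at least 1 list for 7 of the 9 genes (64.2% of all genes) and in all 9 lists for Slc12a2 and Gjb2 (20.5% of all genes). Bsnd and Atp6v1b1 had none. Ranked by -log10 p within each list, with rank 1 the highest peak, promoter ranks separated the cell types in none of the 7 genes. No Sox2-EGFP- list held a promoter peak of Kcne1, listed in 3 Sox2-EGFP+ lists, or of Slc26a4, listed in E14.5 Sox2-EGFP+ replicate 1 alone. For these genes, Sox2-EGFP+ lists without a peak were tied with the Sox2-EGFP- lists. Across all promoters with a peak, 5.73% separated with Sox2-EGFP+ higher and 7.55% with Sox2-EGFP- higher.

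The promoters of Gjb2 and Slc12a2 were listed at every stage, and that of Gjb6 after E12. The Gjb2 promoter peak ranked 16497, 6743, 9103 and 18050 in the E14.5 and E16 Sox2-EGFP+ lists, 15938, 14372 and 10471 in the Sox2-EGFP- lists, and 4103 and 5344 at E12 (exact permutation p = 1 for the later lists). Slc12a2 ranked 21817, 5493, 9975 and 14727 in Sox2-EGFP+ and 6440, 6594 and 5615 in Sox2-EGFP- lists (exact permutation p = 0.4). For Gjb6, ranks were 24595, 18337, 12522 and 32324 against 23237, 20510 and 23497, with no peak at E12 (exact permutation p = 1). The groups overlap in all 3 genes, so the difference seen for Gjb6 lay outside its promoter.

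The promoters of the potassium channel genes appeared after E12. Kcnj10 ranked 9714, 5034, 10120 and 17715 in E14.5 and E16 Sox2-EGFP+ lists and 8983, 8383 and 9963 in Sox2-EGFP- lists, with no peak in either E12 list (exact permutation p = 0.629). Kcnq1 had promoter peaks in 3 Sox2-EGFP+ and 2 Sox2-EGFP- lists, at ranks 20387, 14679 and 20112 and at 22342 and 11697, and lacked one in both E14.5 replicates 2. The Kcne1 promoter was listed in 3 Sox2-EGFP+ lists alone, low in each, at ranks 26804, 30626 and 64930 (exact permutation p = 0.143). The E12 lists were the shortest of the 9, so absence at E12 and low yield cannot be told apart. For Slc26a4 the region with peaks in all 9 lists, chr12:32243804-32244888, had its best-ranked summit 0.78 kb inside the gene, in a coding exon. It ranked 10584, 6212, 8131 and 14193 in E14.5 and E16 Sox2-EGFP+ lists and 13831, 11353 and 4413 in Sox2-EGFP- lists. Its summits spread over 587 bp between lists, so these ranks need not belong to the same part of the region.

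Across the regions with ranks at E14.5 and E16, 8 of the 59 (13.6%) had ranks that did not overlap with Sox2-EGFP+ higher, and 1 (1.69%) with Sox2-EGFP- higher. The background over 69412 regions was 8.62% and 6.34%. A list without the peak was ranked below all listed peaks. Each separated region had a rank-sum p of 0.0571 (two-sided exact permutation), the smallest without ties, and the smallest adjusted p over all regions was 0.374, so no region passed at 0.05. At an unadjusted p under 0.05 there were 1625 regions. This requires that every E14.5 and E16 Sox2-EGFP+ list lacks the peak and every Sox2-EGFP- list holds it. A region with Sox2-EGFP+ higher could therefore not reach it. In the 3 pairs of lists with the same stage and replicate number, 8 of 61 regions had Sox2-EGFP+ and 2 had Sox2-EGFP- higher in every pair, against 10.4% and 9.78% of all regions. These shares are close to the background, and the regions are described below 1 by 1.

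**Figure D4:**
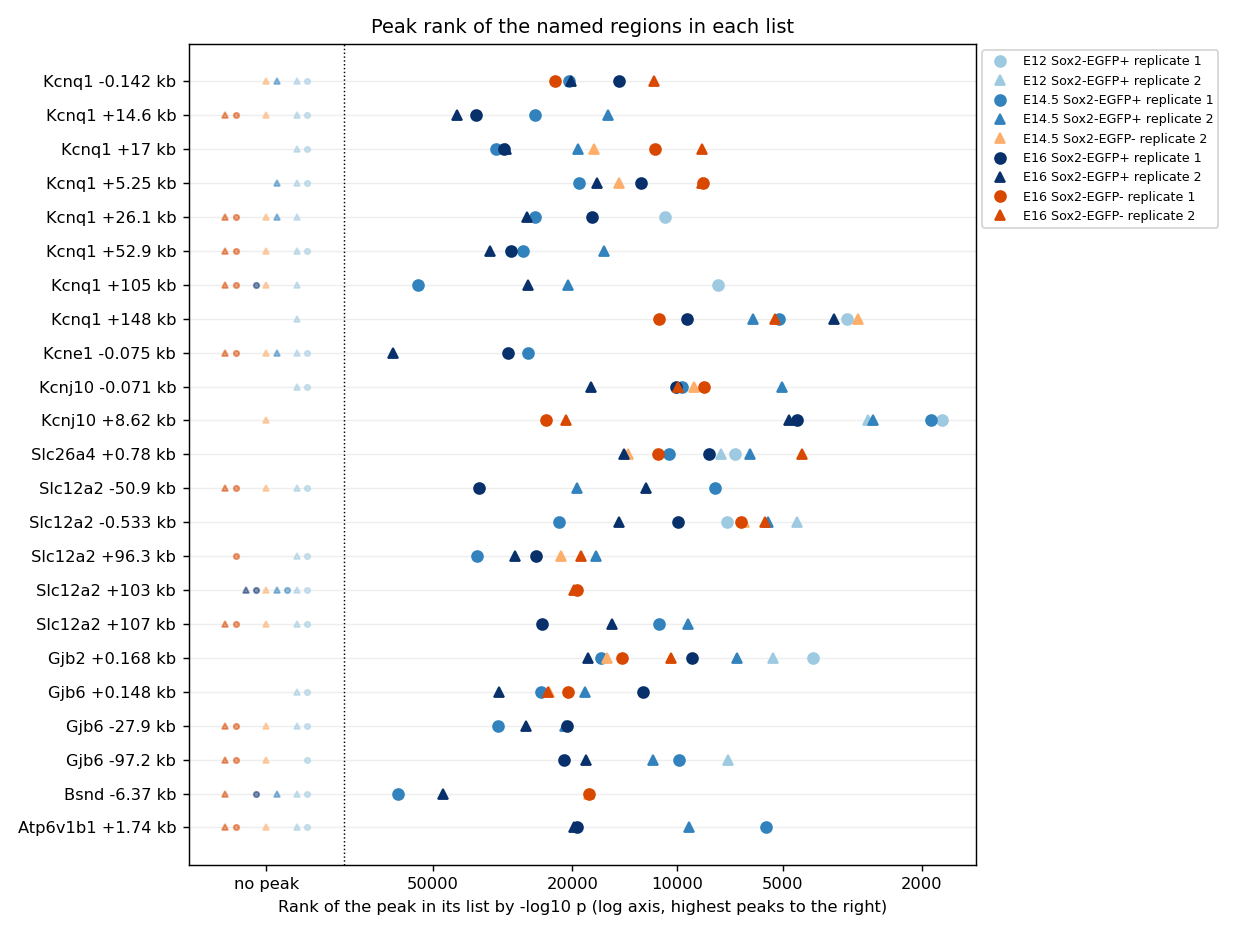
Rank of the peak in each list (horizontal axis, logarithmic, highest peaks to the right) for the 23 named regions, with 1 point per list in the colours of the lists, and small points on the left for lists without a peak. At Kcnj10 +8.62 kb the 6 Sox2-EGFP+ lists rank between 1755 and 4800, while 2 Sox2-EGFP- lists rank at 23717 and 20785 and the other has no peak.

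The highest-ranked of these regions lay in an intron of Kcnj10, 8.62 kb from a start, at chr1:174279780-174280910. It ranked 1755 and 2849 in the E12 lists, 1885 and 2758 in the E14.5 and 4556 and 4800 in the E16 Sox2-EGFP+ lists. It had no peak in E14.5 Sox2-EGFP- cells and ranked 23717 and 20785 in the E16 Sox2-EGFP- lists, near their ends. The fold enrichment over local background at the summit was 6.86, 5.79, 11.8, 5.01, 8.85 and 8.5 in the Sox2-EGFP+ lists in the same order, and 3.28 and 4.14 in the E16 Sox2-EGFP- lists. The difference in position was as plain as that in height. Summits of the 6 Sox2-EGFP+ lists fell within -24 to 79 bp of the strongest, whereas those of the 2 Sox2-EGFP- lists lay 566 and 431 bp downstream, so the Sox2-EGFP- peaks marked another part of the merged region.

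This Kcnj10 region was the only one of the 59 present in both E12 lists with Sox2-EGFP+ ranks apart from those of Sox2-EGFP- cells. The window of 200 bp around its strongest summit, at chr1:174280040-174280239 on the plus strand of mm9, is printed because it carries the clearest division between the cell types. Capitals mark the letters ACAATGG or their reverse complement, a core word of Sox factor sites:

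Kcnj10 +8.62 kb: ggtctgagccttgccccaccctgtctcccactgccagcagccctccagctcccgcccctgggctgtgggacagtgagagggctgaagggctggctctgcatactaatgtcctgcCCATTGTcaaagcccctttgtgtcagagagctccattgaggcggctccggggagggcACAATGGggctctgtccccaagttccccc

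The word occurred 2 times, 14 and 71 bp after the summit, and in opposite orientation. Over the 69357 windows of the same length, 4.68% held it at least once and 0.143% (99 windows) at least 2 times, a count chosen after the sequence was seen. A match of letters is not a bound site.

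Distal regions of the connexin 30 gene followed. Gjb6 had a region 97.2 kb upstream, at chr14:57849195-57849931, which ranked 9879, 11713, 21075 and 18317 in the E14.5 and E16 Sox2-EGFP+ lists and 7170 in E12 replicate 2, and had no Sox2-EGFP- peak. A second region 27.9 kb upstream, at chr14:57780095-57781300, ranked 32704, 20938, 20649 and 27168 in the same 4 lists and was absent from the E12 and Sox2-EGFP- lists. Both lie between genes. The ranks of the farther region were within the length of the Sox2-EGFP- lists in every case, while those of the nearer were beyond it in E14.5 replicate 1 and E16 replicate 2. Windows of 200 bp at chr14:57849541-57849740 and chr14:57780222-57780421 are given with the ACAATGG word in capitals in the first and CAGCTG, an E-box word of bHLH factors, in the second:

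Gjb6 -97.2 kb: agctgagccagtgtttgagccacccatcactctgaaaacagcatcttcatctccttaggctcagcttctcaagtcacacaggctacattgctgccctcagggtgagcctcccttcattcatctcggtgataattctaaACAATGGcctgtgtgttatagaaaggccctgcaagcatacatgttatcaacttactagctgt

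Gjb6 -27.9 kb: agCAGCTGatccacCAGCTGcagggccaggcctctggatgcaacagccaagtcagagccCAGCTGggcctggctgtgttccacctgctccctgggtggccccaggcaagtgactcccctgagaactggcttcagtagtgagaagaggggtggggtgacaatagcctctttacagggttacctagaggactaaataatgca

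The E-box word was found 3 times in the nearer window, 98, 86 and 41 bp before the summit. It was common, in 16.5% of all windows and 10 of the 59 here.

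Atp6v1b1, which had no peak in Sox2-EGFP- lists at all, had its highest region in an intron 1.74 kb from its start, at chr6:83694171-83694997. It ranked 5594 and 9274 in the E14.5 and 19350 and 19811 in the E16 Sox2-EGFP+ lists, and was absent at E12. The fold enrichment was 12.1, 3.73, 4.92 and 6.57. As a percent of list length the ranks were 8.43 and 40.4 at E14.5 and 49.2 and 30.1 at E16, which overlap between stages. The window chr6:83694648-83694847 held the word ACATTCC of TEAD factors in reverse complement, shown in capitals, which was in 4.07% of all windows and in 6 of the 59:

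Atp6v1b1 +1.74 kb: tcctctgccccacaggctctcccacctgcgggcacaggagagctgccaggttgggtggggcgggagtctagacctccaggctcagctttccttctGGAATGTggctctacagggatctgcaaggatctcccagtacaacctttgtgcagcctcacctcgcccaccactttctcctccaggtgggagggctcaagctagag

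Kcnq1 held 16 regions, the most of any of the 9 genes, and 15 of them were intronic. Offsets were taken from the nearest of its starts, at 150293159, 150293456 and 150334663 on chromosome 7. Of its regions, 12 were of Sox2-EGFP+ lists alone and 4 were shared, and ranks separated in both directions. At 14.6 kb, chr7:150307839-150308644, ranks were 25632, 15844, 37623 and 42666 in E14.5 and E16 Sox2-EGFP+ lists, with no other peak. At 52.9 kb, chr7:150387068-150387785, ranks were 27592, 16222, 29878 and 34476 in the same lists alone. Only E14.5 replicate 2 placed either region within the length of the Sox2-EGFP- lists.

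A neighbouring intronic region of Kcnq1 went the other way. At 17 kb, chr7:150310100-150310650, ranks were 33136, 19219, 31386 and 30929 in Sox2-EGFP+ and 17382, 11633 and 8526 in Sox2-EGFP- lists, and it was the only region of the 9 genes with separated ranks and Sox2-EGFP- higher. Here the lists of like length at E14.5 were near each other (19219 and 17382), and the fold enrichment ranged from 2.97 to 5.23 in Sox2-EGFP+ and from 3.33 to 6.91 in Sox2-EGFP- lists, which overlap. The summits of the regions at 14.6 and 17 kb, which differed in direction, lie in the same intron. Their windows, at chr7:150307975-150308174 and chr7:150310396-150310595, held none of the 15 words searched:

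Kcnq1 +14.6 kb: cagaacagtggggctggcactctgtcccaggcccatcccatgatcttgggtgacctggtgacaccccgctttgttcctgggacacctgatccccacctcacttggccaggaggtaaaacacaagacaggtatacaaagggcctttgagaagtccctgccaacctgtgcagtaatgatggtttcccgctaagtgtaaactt

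Kcnq1 +17 kb: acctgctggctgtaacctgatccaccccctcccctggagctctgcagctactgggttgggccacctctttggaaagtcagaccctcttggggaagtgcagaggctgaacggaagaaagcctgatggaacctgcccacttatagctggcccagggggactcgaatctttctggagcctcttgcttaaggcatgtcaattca

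The window at 52.9 kb, chr7:150387509-150387708, held the word CCCNNGGGA of EBF factors, present in 6.74% of all windows, and the E-box word:

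Kcnq1 +52.9 kb: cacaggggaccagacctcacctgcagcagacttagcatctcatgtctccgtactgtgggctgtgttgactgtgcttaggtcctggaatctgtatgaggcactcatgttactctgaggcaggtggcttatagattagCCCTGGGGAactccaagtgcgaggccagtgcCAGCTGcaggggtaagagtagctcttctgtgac

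Another region given to Kcnq1 by distance was high in both cell types. Starts of noncoding transcripts did not enter that rule, and whether this region serves Kcnq1 was not tested. At 148 kb, chr7:150481923-150482795, in an intron, it ranked 5114, 6096, 9410 and 3566 in E14.5 and E16 Sox2-EGFP+ lists, 3048, 11316 and 5248 in Sox2-EGFP- lists, and 3269 in E12 replicate 1. It ranked above the Kcnq1 promoter in each list that held both. A shared intronic region at 5.25 kb ranked 19107, 12696 and 16966 in 3 Sox2-EGFP+ lists and 14733, 8441 and 8511 in the Sox2-EGFP- lists. Regions at 26.1 and 105 kb were of Sox2-EGFP+ lists alone, 4 lists each, E12 replicate 1 included.

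Slc12a2 held 15 regions, of which 12 were of Sox2-EGFP+ lists alone. A region 50.9 kb upstream, at chr18:57987260-57987851, ranked 7796, 19353, 36931 and 12277 in E14.5 and E16 Sox2-EGFP+ lists and had no other peak. Another 107 kb downstream of the start, at chr18:58145071-58145812, ranked 11329, 9319, 24484 and 15439 in these lists alone. In E16 Sox2-EGFP+ replicate 1 the ranks of both regions, 36931 and 24484, were beyond the length of the Sox2-EGFP- lists. The single region of the 9 genes with peaks in Sox2-EGFP- lists alone lay close to that at 107 kb. It was 103 kb from the start at chr18:58141251-58141657, and ranked 19324 and 19737 in the E16 replicates. A further region, at 96.3 kb, was shared, with ranks of 37516, 17077, 25327 and 29194 in Sox2-EGFP+ and 21531 and 18859 in Sox2-EGFP- lists. All are between genes, beyond the end of Slc12a2 or before its start.

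Bsnd had 2 regions. That 6.37 kb upstream, at chr4:106170771-106171439, ranked 63119 and 46934 in Sox2-EGFP+ and 17869 and 17893 in Sox2-EGFP- lists, 1 of each stage for each cell type. Its fold enrichment was 3.88 and 4.96 against 3.39 and 4.57, so the higher rank in Sox2-EGFP- cells came with overlapping heights. The region was absent from the other 5 lists.

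Within the 7500 highest peaks of each list, the one length at which E12 can be compared, the 9 genes had 5 and 5 peaks at E12, 3 and 6 at E14.5 and 1 and 2 at E16 in Sox2-EGFP+ lists, and 2, 1 and 3 in Sox2-EGFP- lists. Kcnj10 was represented in all 6 Sox2-EGFP+ lists and in none of the 3 Sox2-EGFP- lists. No other member showed this. How many of all genes show this pattern was not computed, and the length was chosen after the data were seen. The Kcnj10 peaks were those of the region at 8.62 kb described above, with the promoter added in E14.5 Sox2-EGFP+ replicate 2. This count is therefore not a separate observation. Kcne1, Bsnd and Atp6v1b1 had no peak at E12 in the full lists, and 8 of the 59 regions (13.6%, against 20.1% of all) were present in an E12 list.

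Other genes of the same physiology were viewed beside the 9 in the same 7 lists, some of them in more than a single gene list. For each gene list below, the shares over all genes were 16.3% with Sox2-EGFP+ higher and 9.27% with Sox2-EGFP- higher. No gene list was tested against these shares. Of 14 other ion transport genes with a peak, 5 separated with Sox2-EGFP+ higher and 1 with Sox2-EGFP- higher. The largest differences among them were those of Slc12a7, a potassium and chloride cotransporter of supporting cells (1.42 ± 0.554 against 0.422 ± 0.00595 per 10000, SD, n = 4 and 3), Atp6v0a4, a proton pump subunit (0.546 ± 0.26 against 0), and Kcnj16, a partner of KCNJ10 (1.03 ± 0.188 against 0.558 ± 0.484). Of 10 other junction genes, 3 separated with Sox2-EGFP+ higher and 1 with Sox2-EGFP- higher. The last was Gja1, connexin 43, with 0.741 ± 0.238 against 1.41 ± 0.235, opposite in direction to Gjb6. Gjb5 (0.993 ± 0.602 against 0.283 ± 0.245) and Cldn14, a claudin of hair and supporting cells (0.918 ± 0.354 against 0.279 ± 0.242), were on the Sox2-EGFP+ side.

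Among 10 regulators of the stria and of the endolymphatic duct, 3 separated with Sox2-EGFP+ higher, Lmx1a (3.05 ± 0.562 against 1.13 ± 0.25) and Mitf (2.22 ± 0.933 against 1.27 ± 0.0178) with the largest differences. Pou3f4, a factor of otic mesenchyme, was higher in Sox2-EGFP- lists (0.177 ± 0.134 against 0.845 ± 0.0119). Of 10 genes of the roof and outer sulcus, 4 separated with Sox2-EGFP+ higher and 0 with Sox2-EGFP- higher, among them Fgf9 (2.11 ± 0.551 against 1.12 ± 0.23) and Dlx5 (0.718 ± 0.397 against 0.282 ± 0.245). None of these genes passed at 0.05 after adjustment over all genes, with adjusted p between 0.201 and 0.297 by the exact permutation test.

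Lists of cell types that a dissected duct can hold divided as follows, beside the same shares over all genes of 16.3% and 9.27%. Of 10 prosensory and supporting cell genes, 6 separated with Sox2-EGFP+ higher, and the summed level was 17.4 to 18.7 against 8.79 to 10.7 per 10000. Of 10 otic mesenchyme genes, 7 separated with Sox2-EGFP- higher, led by Tbx18 (0.85 ± 0.124 against 3.1 ± 0.227), with sums of 3.92 to 5.85 against 11.7 to 12.9. The Sox2-EGFP- lists thus carried peaks of mesenchyme genes beside those of any duct epithelium, and the part of cell mixture in the values of the 9 genes was not tested.

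Melanocyte genes, which would mark intermediate cells of the stria, summed to 6.36 to 10.3 in Sox2-EGFP+ and 5.86 to 7.13 in Sox2-EGFP- lists, which overlap. In that list 3 of 8 genes with a peak separated with Sox2-EGFP+ higher, Dct among them (2.28 ± 0.401 against 0.988 ± 0.26), while of the defining pigment cell genes Tyr and Pmel had no peak in these lists of either cell type, and Mlana (0.139 against 0) and Slc45a2 (0.0756 against 0) had few in Sox2-EGFP+ lists. Glia and neuron genes gave 5 with Sox2-EGFP+ higher and 1 with Sox2-EGFP- higher (4.4 to 5.23 against 2.09 to 2.94). Endothelial genes summed to 3.05 to 6.93 against 6.28 to 7.55, with Pecam1 and Tek separating in opposite directions. Macrophage genes were at 0 to 1.06 against 0.418 to 0.858, and few of the genes had peaks in either cell type: Csf1r and Cx3cr1 were at 0.139 and 0, and Clec7a, the gene that separated, was higher in Sox2-EGFP- lists (0.0756 ± 0.0873 against 0.422 ± 0.00595).

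**Figure D5:**
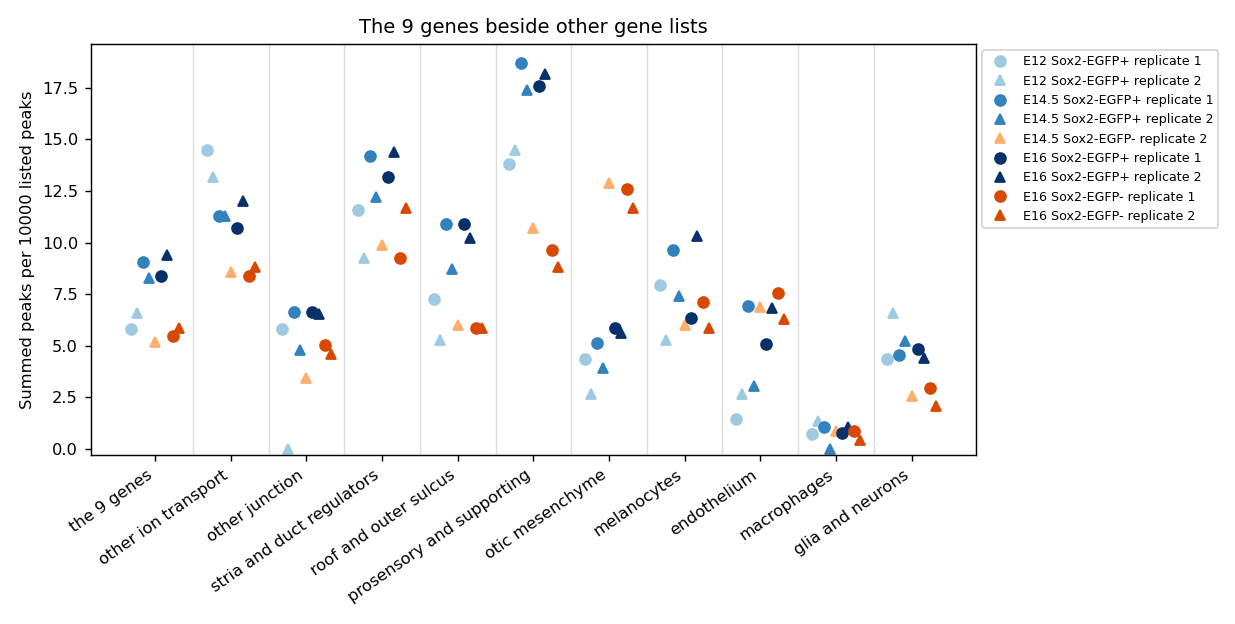
Summed peaks per 10000 listed peaks (vertical axis) for the 9 genes and 10 other gene lists, with 1 point per peak list in the same colours and symbols as the plot by gene. The 9 genes stand at 8.27 to 9.41 in E14.5 and E16 Sox2-EGFP+ lists and 5.15 to 5.86 in Sox2-EGFP- lists, and the otic mesenchyme list shows the reverse order.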

How the data were processed

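In all, 9 ATAC-seq peak lists were analysed, 6 of Sox2-EGFP+ and 3 of Sox2-EGFP- cochlear duct cells. Per the study's methods, the authors trimmed reads (Trim Galore), aligned them to mm9 (Bowtie2), removed duplicate and mitochondrial reads (Picard, SAMtools), called peaks in each sample alone (MACS2) and kept peaks that overlapped another sample of the same type (BEDOPS). Versions are not given in the sources used here. The deposited fold enrichment is a ratio of the pileup at the summit to local background. MACS2 gave the deposited -log10 p and -log10 q per sample, as run by the authors, and the deposited score, 10 times the -log10 q, was not used. Reads were not used here, so precision is known only from the spread between lists.

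Summits were assigned to the nearest protein-coding start of GENCODE vM1 (mm9) within 500 kb. Peaks were counted per gene and divided by list length per 10000 peaks. Peaks of all lists were merged within 100 bp, and a region took its highest-ranked peak in each list. Cell types were compared over the E14.5 and E16 lists (4 against 3) by two-sided exact permutation of the 35 splits, of mean differences for genes and of rank sums for regions and promoters, with Benjamini-Hochberg adjustment over all genes, regions or promoters tested. A gene or region was said to separate where its groups did not overlap. P-values are set by the spread between these pooled samples, which mix stages and sequencing batches. Because each list held only peaks shared with another list of its cell type, lists of a type were alike partly by selection. That spread is therefore not one between independent samples. No column of the authors' comparisons was present.

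All members were named. Their regions were named if they had a peak in 4 or more lists, held a promoter, separated, or had peaks in Sox2-EGFP- lists alone. From each other gene list up to 3 separated genes with the largest differences were named. Sequences, from the mm9 reference, are 200 bp around the summit of separated regions, with 15 words searched on both strands, overlaps allowed. Chromosome 18 sequence is not reported here. The members and gene lists were chosen with earlier results of these data known. The scripts were tested on simulated lists and run with Python, NumPy and pandas. Alternatives changed the threshold, list length, transcripts, distance, merging, overlap, promoter width, rank measure, samples, batch and pairing.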

Additional observations from a re-analysis of the deposited data

Results flagged for a closer look

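In the group of 6 Sox2-EGFP+ lists, 2 member genes had a list far from the others by Dixon's criterion. Kcnq1 had 0 peaks per 10000 in E12 replicate 2, the shortest list, against 2.17 to 2.61 in the other 5. Gjb2 had 1.32 per 10000 in the same list, which is 1 peak of 7577, against 0.436 to 0.724 in the others. Chance flags about 1 in 20 groups of normally distributed values. That rate need not hold for small counts divided by unequal list lengths, and these genes rest on few peaks in that list.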

How the results depend on the processing

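The difference of the 9 genes together (main value 3.3 peaks per 10000) stayed above 0 under every alternative run: 2.72 with a -log10 q of at least 5, 2 with the 20000 and 1.33 with the 7500 highest peaks of each list, 2.43 with all 9 lists, 2.69 within 100 kb, and 3.08 to 3.48 leaving out a list in turn. For single genes the direction turned for Kcnj10 with E16 lists only (-0.0254), for Kcnq1 with 20000 peaks (-0.0418), and with 7500 peaks for Slc12a2 (-1) and Slc26a4 (-0.111), while Bsnd, Gjb6 and Kcne1 came to 0 there. Leaving out a list gave Kcnj10 -0.0631 to 0.142, negative without E14.5 Sox2-EGFP- replicate 2 (-0.0631) and without E16 Sox2-EGFP+ replicate 1 (-0.00779). Other genes kept their direction when a list was left out: Kcnq1 0.76 to 0.955, Kcne1 0.691 to 1.1, Slc26a4 0.126 to 0.235, Slc12a2 0.22 to 0.637, Gjb2 0.0935 to 0.151, Gjb6 0.437 to 0.618, Bsnd -0.273 to -0.0584 and Atp6v1b1 0.33 to 0.397. Adjusted p ranged from 0.17 to 1 over the alternatives.

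Regions of Sox2-EGFP+ lists alone numbered 14 of 26 with 20000 peaks (33.6% of all regions), 5 of 8 with 7500 (34.6%) and 24 of 37 without the 2 longest lists (47.5%). They numbered 46 to 48 leaving out a list (65.5% to 66.2% of all). Regions of Sox2-EGFP- lists alone numbered 2, 0 and 2 in the same 3 settings (18.2%, 11.5% and 11.3% of all), and 1 leaving out a list (5.56% to 5.7%). Shared regions numbered 3 with 7500 peaks (53.8% of all), and 12 to 13 leaving out a list (28.3% to 28.9%). Regions that separated with Sox2-EGFP+ higher (8) numbered 4 at the stricter q (5.39% of all regions), 2 with 20000 peaks (7.81%), 1 with 7500 (3.92%), 1 with all 9 lists (1.22%) and 22 with E16 alone (27.5%). Leaving out a list gave 8 to 22, the highest without E14.5 Sox2-EGFP+ replicate 2 (background 25.4%). Those with Sox2-EGFP- higher (1) numbered 0 with 7500 peaks (3.99% of all), 5 with E16 alone (12.3%), 2 in batch 2 alone (10.6%) and 1 to 3 leaving out a list. There were 3 without E14.5 Sox2-EGFP- replicate 2 (10.1% of all). There were 2 without E14.5 Sox2-EGFP+ replicate 2 (7.39%), E16 Sox2-EGFP+ replicate 1 (7.96%) or E16 Sox2-EGFP- replicate 2 (9.32%). Promoter separations were 0 to 1 in each direction, the 1 arising without E14.5 Sox2-EGFP+ replicate 2. The 7500-peak setting and the omission of the 2 longest lists were chosen after seeing the data. With 20000 peaks the 9 genes had 26 regions, while at the stricter q they still had 59. The cause of these changes in count was not tested.

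The study ties replicates of Sox2-EGFP+ cells to litters and describes E16 Sox2-EGFP- cells as taken alongside, but the sources used here do not state that equal numbers mark the same litter, and the correlation of replicate differences could be had for E16 alone (r = 0.21 over 16414 regions). With the replicate block, 8 of 61 regions had Sox2-EGFP+ (10.4% of all) and 2 had Sox2-EGFP- (9.78%) higher in all 3 pairs, and the 9 genes differed by 3.21. Sign flips of 3 pairs cannot give an exact p below 0.25.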

Other observations

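Of the 15 words searched in the 59 windows of 200 bp, TEAD occurred in 6 (10.2%, against 4.07% of all windows), RUNX in 5 (8.47%, 3.37%), SOX in 4 (6.78%, 4.68%), FOX in 3 (5.08%, 2.44%), GATA in 3 (5.08%, 3.01%), AP-1 in 3 (5.08%, 5.85%), EBF in 4 (6.78%, 6.74%) and the E-box word CAGCTG in 10 (16.9%, 16.5%). TCAGGTTTC (0.846% of all), TFAP2 (0.841%) and MITF (1.94%) occurred in 1 window each. These are counts of few windows with no test. The median GC content was 53.5% in both sets. The words of ESRR (0.9% of all), GRHL (0.203%) and NFI (2.01%) occurred in none of the 59 windows.

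The 4 windows with a CTCF word belonged to Kcnq1 at 0.804 kb, Kcne1 at 17.7 kb, Kcnj10 at 16.4 kb and Atp6v1b1 at 11.7 kb, and 5.51% of all windows held it. All 4 had peaks in Sox2-EGFP+ lists alone, as did 78% of the 59 regions.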
